A study of Mus musculus with 6 samples.

Results

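The 4 IFIT genes measured here (Ifit1, Ifit2, Ifit3 and Ifit3b) and the 5 genes of the ISG15 conjugation system (Isg15, Uba7, Ube2l6, Herc6 and Usp18) were taken by gene symbol from a table of 18404 genes. All 9 were found and all 9 passed the low-count filter that left 14920 genes for testing. The set was chosen from earlier results of the same comparison, in which interferon-induced genes stood higher in the knockout, so the differences between the groups given below describe the chosen genes and test nothing about them.

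Ear skin was taken from mouse pups 3 days after birth (postnatal day 3), and its RNA was sequenced. The 3 control libraries were from littermates labelled only as controls, and the 3 libraries labelled ecko were from pups with an induced endothelial deletion of Kdr, the gene of the VEGF receptor VEGFR2. Pups of both groups are recorded as tamoxifen treated, with injections starting on postnatal day 1 at 60 µg per day for this age, and the series name gives 48 h. The labels name neither the Cre line that drives the deletion nor the genotype of the controls, and they do not say whether each library is 1 animal, so the p-values measure only the spread between these libraries.

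Type I interferons bind a receptor of IFNAR1 and IFNAR2, and the kinases JAK1 and TYK2 then activate the ISGF3 complex, which contains STAT2 and IRF9. ISGF3 binds the interferon-stimulated response element (ISRE) in promoters and switches on a large set of genes, among them the genes described here. IFIT proteins are built of tetratricopeptide repeats and hold viral or unmodified RNA. ISG15 is a ubiquitin-like protein that is joined to target proteins by an E1 (UBA7), an E2 (UBE2L6) and, in mice, the E3 HERC6, and is taken off by USP18, which also restrains signalling at IFNAR2. In skin, keratinocytes, fibroblasts, endothelial cells and leukocytes can all express these genes, and in RNA of a whole tissue more cells of a type and more RNA per cell cannot be told apart.

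Promoter sequence is shown for the 4 members whose promoters held the ISRE core, chosen for holding it. The stretches show where the matches lie and how alike the Ifit3 pair is. Promoters are RefSeq windows of GRCm38.p6, from 250 bases before to 50 after a transcription start. The ISRE core was searched as GAAANNGAA on both strands, and each stretch runs 5′ to 3′ on the gene's strand with the matching bases in capitals and 10 bases on either side.
Ifit1: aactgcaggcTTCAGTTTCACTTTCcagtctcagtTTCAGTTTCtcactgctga
Ifit3: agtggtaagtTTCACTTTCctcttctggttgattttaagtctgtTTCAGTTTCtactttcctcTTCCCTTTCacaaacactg
Ifit3b: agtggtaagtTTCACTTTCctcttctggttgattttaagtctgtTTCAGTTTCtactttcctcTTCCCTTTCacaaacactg
Isg15: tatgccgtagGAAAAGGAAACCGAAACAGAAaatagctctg
The Ifit1 stretch is chr19:34640770-34640823, the Ifit3 stretch chr19:34583364-34583445 and the Ifit3b stretch chr19:34607760-34607841, all on the plus strand, and the Isg15 stretch is chr4:156200866-156200906 on the minus strand. Each holds 3 matches, which overlap in Isg15 and in part in Ifit1.

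Of the 9 members, 8 had a promoter in the table (none for Usp18), and 4 of these 8 held the ISRE core, against 9.76% of 27025 genes. Ifit3 and Ifit3b are among these 4, and as near copies they are not separate cases. No match was found in the windows of Ifit2, Uba7, Ube2l6 and Herc6, which says only that those letters are not in those windows. With 1 further A at the end of the core, the same 4 of 8 members matched, against 3.99% of all genes. The GAS letters TTCNNNGAA (gamma-activated site), which can overlap an ISRE match in part but not coincide with it, were found in 1 of 8 members (Ifit2, as TTCCTGGAA) and in 9.55% of all genes. The ISRE core was also in 4 of 9 promoters of other IFIT genes and ISG15 partners and in 3 of 15 of the receptor and ISGF3 pathway. It was in 0 of 18 promoters of relatives of the conjugation enzymes and in 0 of 8 of other modifiers. A match is a description of sequence, and binding was not measured here.

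The Ifit3 and Ifit3b stretches are identical base for base, and the windows share 169 bases without a difference. The transcription starts used for the 2 promoter windows are annotated at different points. The same stretch begins 165 bases before that of Ifit3 and 197 bases before that of Ifit3b. The distances hold for these starts only. The gene spans given below begin earlier, at 34583119 for Ifit3 and 34607530 for Ifit3b, so both stretches lie within them. In the coding sequence (GENCODE M21) 1198 of 1209 bases were the same, 99.1%, whereas Ifit1 and Ifit2 shared 53.8% of aligned bases and Ifit1 and Ifit3 49.3%. Of the windows of 100 bases along the Ifit3 transcript, 31.7% also occur in Ifit3b, so part of their reads cannot be assigned to either gene with certainty. This shows in the counts, which were not whole numbers in all 6 libraries for both genes. No other IFIT member had a count that was not whole.

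Each library held 16987130 to 17979182 expected counts, that is, read numbers estimated per gene. The targeted gene was checked first. Kdr had 1599, 1860 and 1337 counts in controls 1, 2 and 3 and 348, 431 and 370 in ecko 1, 2 and 3, with an edgeR adjusted p of 0.0002 and a log2 fold change of -2.05 ± 0.12 (SE). Skin markers were present at a summed 17330 to 23340 CPM for 5 keratinocyte genes and 33520 to 39060 CPM for 5 fibroblast genes (CPM, the count per 1000000 counts after scaling by TMM). Control 3 had the lowest sum of 6 skeletal muscle genes, 4223 CPM against 6009 to 7603 CPM in the other libraries, and control 2 and ecko 3 had 4 and 6 counts of the Y-linked gene Ddx3y against 1445 to 1641.

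All 9 members had a higher mean in ecko, where 49.5% of all genes tested had. In 8 of 9 the lowest ecko library lay above the highest control, where the share over all genes was 7.55%. The median log2 fold change of the members was 1.304 (2.47-fold), beside -0.002 over all genes tested, and 6 of 9 lay above 1, as did 0.503% of all genes. Without control 3 the median was 1.168, and 9 of 9 had groups without overlap, beside 13.3% of all genes with 2 controls against 3 ecko libraries. The edgeR quasi-likelihood test, adjusted by Benjamini-Hochberg over all genes, called 0 members, with adjusted p from 0.1496 (Isg15) to 0.5784 (Ube2l6), and called 0% of all genes higher. At an unadjusted p under 0.05 there were 8 members higher, beside 4.92% of all genes. DESeq2 called 7 members, all but Uba7 and Ube2l6, and 0.583% of all genes higher, and limma-voom called 0. As the members were chosen on this contrast, nothing is read from these counts.

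**Figure D1:**
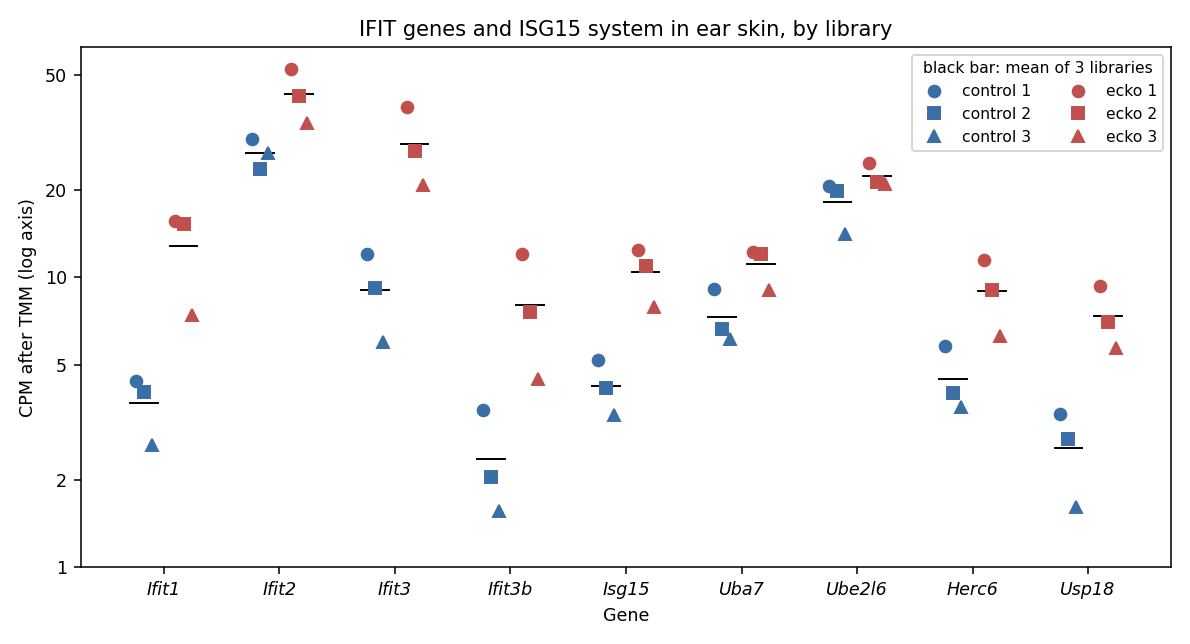
CPM after TMM (log axis) of each of the 9 genes in the 3 control (blue) and 3 ecko (red) libraries; symbols mark the replicate number and black bars the mean of 3 libraries. Red points lie above all blue points in each gene except Uba7, where ecko 3 (9.07 CPM) and control 1 (9.11 CPM) are level.

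Among the IFIT genes, Ifit1, which encodes a sensor of RNA whose cap lacks ribose methylation, had the largest fold change. Ifit1 (Entrez 15957, chromosome 19, 34640889 to 34650009, GRCm38.p6) had 78, 73 and 46 counts in controls 1 to 3 and 281, 273 and 127 in ecko 1 to 3. Ecko 3 lay well below the other knockout libraries but was still 1.69 times the highest control. The group levels were 3.69 ± 0.92 CPM in controls and 12.8 ± 4.65 CPM in ecko (SD, n = 3), so the log2 fold change was 1.79 ± 0.31 (SE). Without ecko 3 the edgeR adjusted p was 0.0236, the only member called with 1 library left out.

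Ifit3 encodes a partner protein that stabilises IFIT1 binding to RNA in humans. Ifit3 (Entrez 15959, chromosome 19, 34583119 to 34588982) had 213.6, 165.8 and 103.6 expected counts across the controls, against 692.9, 486.4 and 355 in ecko. Its lowest ecko library stood 8.74 CPM above the highest control, the widest gap in CPM of the 9 genes. The means were 9.07 ± 3.02 and 28.9 ± 9.01 CPM (SD, n = 3), with a log2 fold change of 1.67 ± 0.31 (SE).

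Ifit3b, its near copy (Entrez 667370, chromosome 19, 34607530 to 34613403), had 62.4, 37.2 and 27.4 expected counts across the controls, against 216.1, 134.6 and 76.0 in ecko. Scaled, this gave 2.36 ± 1.00 and 8.01 ± 3.81 CPM (SD, n = 3), and the log2 fold change was 1.76 ± 0.42 (SE), the largest error of the 9. Ifit3b took 22.6%, 18.3% and 20.9% of the summed Ifit3 and Ifit3b counts across the controls, against 23.8%, 21.7% and 17.6% in ecko. The 2 groups overlapped in this share, so the balance between the copies did not separate them. With both copies summed to 1 row, which does not depend on how shared reads were divided, the log2 fold change was 1.69 ± 0.35 (SE), or 3.22-fold, with an edgeR adjusted p of 0.3534.

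Ifit2, whose protein binds AU-rich RNA, was the IFIT gene with the smallest fold change. Ifit2 (Entrez 15958, chromosome 19, 34550550 to 34576534) had 532, 427 and 466 counts across the controls, against 937, 752 and 581 in ecko. Its lowest ecko library, ecko 3, was 1.14 times the highest control. The means were 26.8 ± 3.14 and 42.8 ± 9.09 CPM (SD, n = 3), so the log2 fold change was 0.67 ± 0.16 (SE). It was also the 1 member whose lowest control was control 2 and not control 3.

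The modifier gene Isg15 had the smallest edgeR p of the set. Isg15 (Entrez 100038882, chromosome 4, 156199424 to 156200818) had 92, 75 and 58 counts across the controls, against 224, 195 and 135 in ecko. The groups did not overlap, with ecko 3 at 1.53 times the highest control. The log2 fold change was 1.304 ± 0.209 (SE), from 4.22 ± 0.92 to 10.4 ± 2.32 CPM (SD, n = 3).

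The fold change of Usp18, the gene of the protease that removes ISG15, lay within the error of that of Isg15. Usp18 (Entrez 24110, chromosome 6, 121245906 to 121270917) had 60, 50 and 28 counts across the controls, against 168, 125 and 98 in ecko. The lowest ecko library was 1.70 times the highest control. The means were 2.58 ± 0.89 and 7.36 ± 1.83 CPM (SD, n = 3), with a log2 fold change of 1.51 ± 0.27 (SE).

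The genes of the 3 conjugating enzymes had smaller fold changes than Isg15, a difference between members that was not tested. Herc6, the E3 ligase (Entrez 67138, chromosome 6, 57580992 to 57665136), had 103, 72 and 62 counts across the controls, against 207, 162 and 107 in ecko. The groups were separated by a narrow margin, since ecko 3 was 1.08 times control 1. The means were 4.45 ± 1.18 and 8.95 ± 2.63 CPM (SD, n = 3), and the log2 fold change was 1.01 ± 0.25 (SE).

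Uba7, the E1 enzyme that activates ISG15 (Entrez 74153, chromosome 9, 107975567 to 107984056), had 162, 120 and 106 counts across the controls, against 219, 215 and 155 in ecko. It was the 1 member with overlapping groups, as ecko 3 and control 1 were level. The means were 7.29 ± 1.60 and 11.1 ± 1.76 CPM (SD, n = 3), with a log2 fold change of 0.61 ± 0.18 (SE). Ube2l6, the E2 enzyme (Entrez 56791, chromosome 2, 84798828 to 84810003), had 367, 360 and 245 counts across the controls, against 447, 381 and 358 in ecko. Controls 1 and 2 and ecko 2 and 3 lay within 19.9 to 21.4 CPM, so most of the difference in means came from control 3 and ecko 1, and the groups were 0.31 CPM apart. The log2 fold change was 0.30 ± 0.14 (SE), and it was 0.149 without control 3.

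The proportions of the system within a library were compared next. For each CPM of Isg15 the controls had 1.76, 1.60 and 1.83 CPM of Uba7 and the ecko libraries 0.978, 1.10 and 1.15. For Ube2l6 the ratios were 3.99, 4.80 and 4.22 across the controls, against 2.00, 1.95 and 2.65 in ecko. Herc6 had 1.12, 0.960 and 1.07 against 0.924, 0.831 and 0.793. All 3 enzymes were thus lower per Isg15 in every ecko library than in any control, whereas Usp18 per Isg15 overlapped, with 0.600 ± 0.102 in controls and 0.706 ± 0.057 in ecko (SD, n = 3). The lowest ecko library of Isg15 was already 1.53 times its highest control, so a gene with little change would also be lower per Isg15. The ratios restate the fold changes and show nothing further about the system. CPM is not scaled to length, so these ratios compare libraries and not the levels of 2 genes, and an exact permutation test of 3 against 3 libraries cannot go below p = 0.1.

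The same was done for the IFIT genes. Ifit2 per Isg15 was 5.78, 5.69 and 8.03 across the controls, against 4.18, 3.86 and 4.30 in ecko. Ifit3 per Ifit2 was 0.402, 0.389 and 0.223 across the controls, against 0.740, 0.646 and 0.611 in ecko, and Ifit1 per Ifit2 was 0.147, 0.171 and 0.0987 against 0.300, 0.363 and 0.219. The groups did not overlap in these 3 ratios. Ifit1 per Isg15 overlapped, with 0.871 ± 0.092 in controls and 1.20 ± 0.235 in ecko (SD, n = 3), and so did Ube2l6 per Uba7, with 2.53 ± 0.41 and 2.04 ± 0.27. The 10 ratios computed were chosen with the levels known and are not tests. Such ratios were not computed for all genes, so how many lacked overlap is not read as a result.

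**Figure D2:**
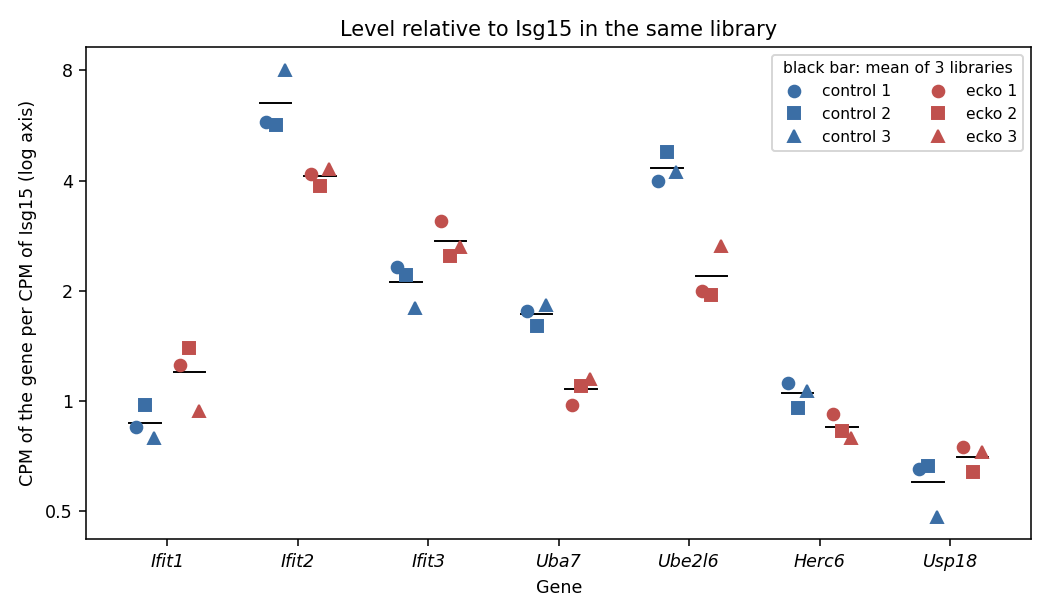
CPM of each gene divided by the CPM of Isg15 in the same library (log axis), in 3 control (blue) and 3 ecko (red) libraries; symbols mark the replicate number and black bars the mean of 3. Uba7, Ube2l6, Herc6 and Ifit2 are lower in all ecko libraries (for Ube2l6, 1.95 to 2.65 against 3.99 to 4.80), Ifit3 is higher in all, and Usp18 and Ifit1 overlap. Isg15 itself did not overlap between the groups, so a gene with little change is also lower per Isg15.

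Levels of different genes were compared per length, as CPM per kb of exon. In controls the E2 gene Ube2l6 was highest with 11.7 ± 2.29, followed by Ifit2 (7.02 ± 0.82), Isg15 (5.59 ± 1.21) and Ifit3 (5.20 ± 1.73) (CPM per kb; SD, n = 3). Below them were Uba7 (2.28 ± 0.50), Usp18 (1.46 ± 0.50), Ifit1 (1.39 ± 0.35), Ifit3b (1.18 ± 0.50) and the E3 gene Herc6 (0.933 ± 0.247). Neighbours in this order were grouped where their ranges of mean ± SD met, and the ends of a group need not meet. The genes were measured in the same libraries and varied together, so this grouping does not test whether 2 levels are equal. In controls they met from Ifit2 to Ifit3 and from Uba7 to Herc6, and Ube2l6 stood apart. In ecko they met among Ifit3 (16.5 ± 5.16), Ube2l6 (14.4 ± 1.38), Isg15 (13.8 ± 3.08) and Ifit2 (11.2 ± 2.38). They also met among Ifit1 (4.82 ± 1.75), Usp18 (4.16 ± 1.03), Ifit3b (4.01 ± 1.90) and Uba7 (3.48 ± 0.55), and Herc6 was again lowest (1.88 ± 0.55).

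The 9 genes varied together within each group. Control 1 was the highest control in 9 of 9 members, and control 3 the lowest in 8 of 9. Ecko 1 was the highest ecko library in 9 of 9 and ecko 3 the lowest in 9 of 9. The mean log2 CPM of the members was 2.99, 2.63 and 2.28 in controls 1 to 3 and 4.14, 3.84 and 3.38 in ecko 1 to 3. This ranking of all 6 libraries within their groups, with control 2 and ecko 2 between the others, was found in 8 of 9 members and in 4.99% of all genes tested. The sums of the muscle markers (7603, 6431 and 4223 CPM in controls 1 to 3, 7330, 6471 and 6009 CPM in ecko 1 to 3) and of the macrophage markers (766.1, 695.2 and 693.7 CPM, then 827.6, 794.9 and 757.4 CPM) ranked the libraries in the same way. So did the sum of the plasmacytoid dendritic cell markers (50.2, 41.7 and 28.7 CPM, then 57.9, 54.3 and 42.5 CPM). The part of these markers in the levels of the members was not tested. The nearest libraries of the 2 groups, control 1 and ecko 3, were thus closer to each other than ecko 3 was to ecko 1.

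**Figure D3:**
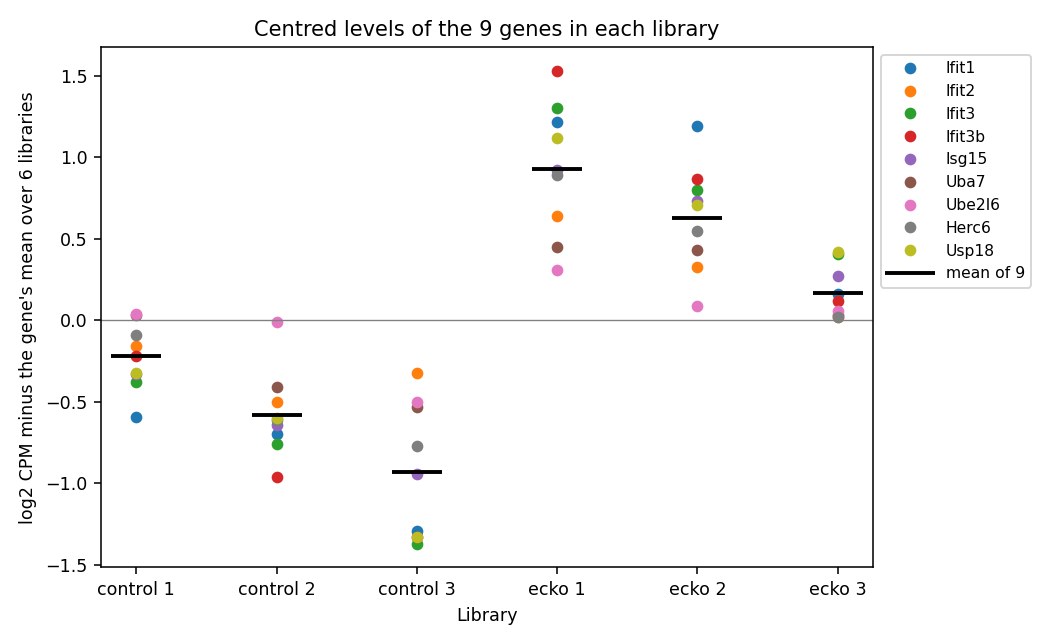
log2 CPM of each gene minus its mean over the 6 libraries (log2 units), with coloured points for the 9 genes and a black bar for their mean in each library. The means run from -0.22 to -0.93 in controls and from 0.17 to 0.93 in ecko, and Ube2l6 spans the narrowest range of the 9 genes.

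Other genes with this pattern were sought by the root mean square difference between a gene's centred log2 CPM and the members' mean over the 6 libraries. The median of this difference over 14173 genes of at least 20 mean counts was 0.662 log2 units. The closest was Trim30c at 0.047, followed by Phf11b (0.106), the interferon-induced Xaf1 (0.106) and the guanylate-binding protein gene Gbp3 (0.117). Ifi213, of the family of DNA sensors, had 0.124, the oligoadenylate synthetase genes Oas2 and Oas1a 0.128 and 0.129, and Gbp6 0.129. Of the members, which make up that mean, Isg15 (0.077) and Herc6 (0.113) lay closest to the mean profile and Ube2l6 (0.460) farthest. Trim30c had 1.03 ± 0.24 CPM in controls and 2.48 ± 0.57 in ecko, and Gbp6 8.93 ± 1.51 and 22.8 ± 7.30 (SD, n = 3). The measure uses the group difference, so it describes likeness and tests nothing.

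Genes of the receptor and ISGF3 pathway were higher in part. Of 16 genes, all tested, 14 were higher on average in ecko, beside 49.5% of all genes tested, and their median log2 difference was 0.196. In either direction 0 passed the edgeR test adjusted over all genes (0% of all genes higher, 0.0067% lower). In 8 the groups did not overlap, higher in ecko, and in 0 lower, beside 7.55% and 8.11% of all genes. Irf7, the factor that amplifies interferon production, had 339, 335 and 202 counts across the controls, against 830, 585 and 490 in ecko, a log2 fold change of 1.13 ± 0.24 (SE). Stat2 and Irf9 of ISGF3 had 0.66 ± 0.19 and 0.63 ± 0.17, and Irf1 had 0.46 ± 0.12 (log2 fold change, SE). The receptor genes Ifnar1 (0.08 ± 0.06) and Ifnar2 (0.16 ± 0.09) and the kinase genes Jak1 (-0.06 ± 0.06) and Tyk2 (0.15 ± 0.10) had smaller differences, and of these 4 Ifnar2 had groups without overlap (25.4 to 30.7 CPM in controls and 31.2 to 32.0 CPM in ecko). Irf3, which acts before interferon is made, had -0.01 ± 0.10, and Socs1, a feedback inhibitor, 0.01 ± 0.23.

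Of the interferons, the 5 genes measured here had transcripts at or near the detection limit in both groups. Of 21 interferon genes sought, 5 were in the table, 0 passed the filter, and the largest count of any in 1 library was 6.22 (Ifnz in control 3). Ifnb1 had 1 count in control 2 and 0 in the other 5 libraries, and Ifnk had 2, 1 and 0 counts across the controls, against 0 in ecko. A count of 0 over the 3 ecko libraries allows up to 0.0567 CPM (3 counts of the group total, counting error only). Ifng had 1 and 3 counts in ecko 2 and 3 and 0 elsewhere, and Ifne 2 counts in control 1 and 1 in ecko 2. No difference in a transcript of these 5 genes was detectable at this depth. The other 16 genes were not analysed here, so their levels are not known.

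Further IFIT genes and ISG15 partners gave a mixed picture. Of 12 genes 11 were tested, 5 with a higher mean in ecko, beside 49.5% of all genes tested, and 6 with a lower mean. Their median log2 fold change was -0.004, and 0 passed the edgeR test. Ifit1bl1, which shares 73.2% of aligned coding bases with Ifit1 but no stretch of 100 bases, had 31, 20 and 17 counts across the controls, against 55, 43 and 34 in ecko (log2 fold change 0.96 ± 0.28, SE). Ifit1bl2 had 0 to 6 counts and was not tested. Trim25, an E3 ligase of the RIG-I pathway that can carry ISG15, had 69.4 ± 6.48 CPM in controls and 88.0 ± 5.57 in ecko (SD, n = 3; 0.34 ± 0.08). Groups did not overlap in 2 genes on the higher side (Ifit1bl1 and Trim25) and in 2 on the lower side, beside 7.55% and 8.11% of all genes. Usp5 and Usp14, ubiquitin proteases that can react with ISG15 in vitro, had groups without overlap on the lower side, with -0.09 ± 0.06 and -0.08 ± 0.06, and Usp16, another such protease, had -0.15 ± 0.10 with overlapping groups (log2 fold change, SE).

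Relatives of the conjugation enzymes that serve ubiquitin or other modifiers had small fold changes in both directions. Of 24 tested, 8 had a higher and 16 a lower mean in ecko, beside 49.5% of all genes tested with a higher mean. Their log2 fold changes ran from -0.18 (Ube2f, ± 0.10 SE, with overlapping groups) to 0.21 with a median of -0.064, and 0 passed the edgeR test. Groups did not overlap in 1 on the higher side (Usp8, 0.11 ± 0.06) and in 3 on the lower side (among them Ube2l3 and the NEDD8 E2 gene Ube2m, -0.13 ± 0.08), beside 7.55% and 8.11% of all genes. Ube2l3, the ubiquitin E2 most like Ube2l6, had -0.09 ± 0.06 (SE), and Uba1, the main ubiquitin E1, -0.08 ± 0.06. The small HERC genes Herc3 and Herc4 had 0.05 ± 0.16 and 0.12 ± 0.07, against 1.01 ± 0.25 for Herc6. Of 11 other modifier genes tested, 3 had a higher mean, the median was -0.034, and 0 passed. Groups did not overlap in 0 on the higher side and in 3 on the lower side (Nedd8, Sumo2 and Ufm1). The range was -0.22 ± 0.09 (Ufm1) to 0.05 ± 0.07 (the ubiquitin gene Ubb), with Sumo2 at -0.12 ± 0.06, Sumo3 at -0.13 ± 0.07 and Nedd8 at -0.11 ± 0.07. The lists were written down with earlier results known, so these counts are descriptions.

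**Figure D4:**
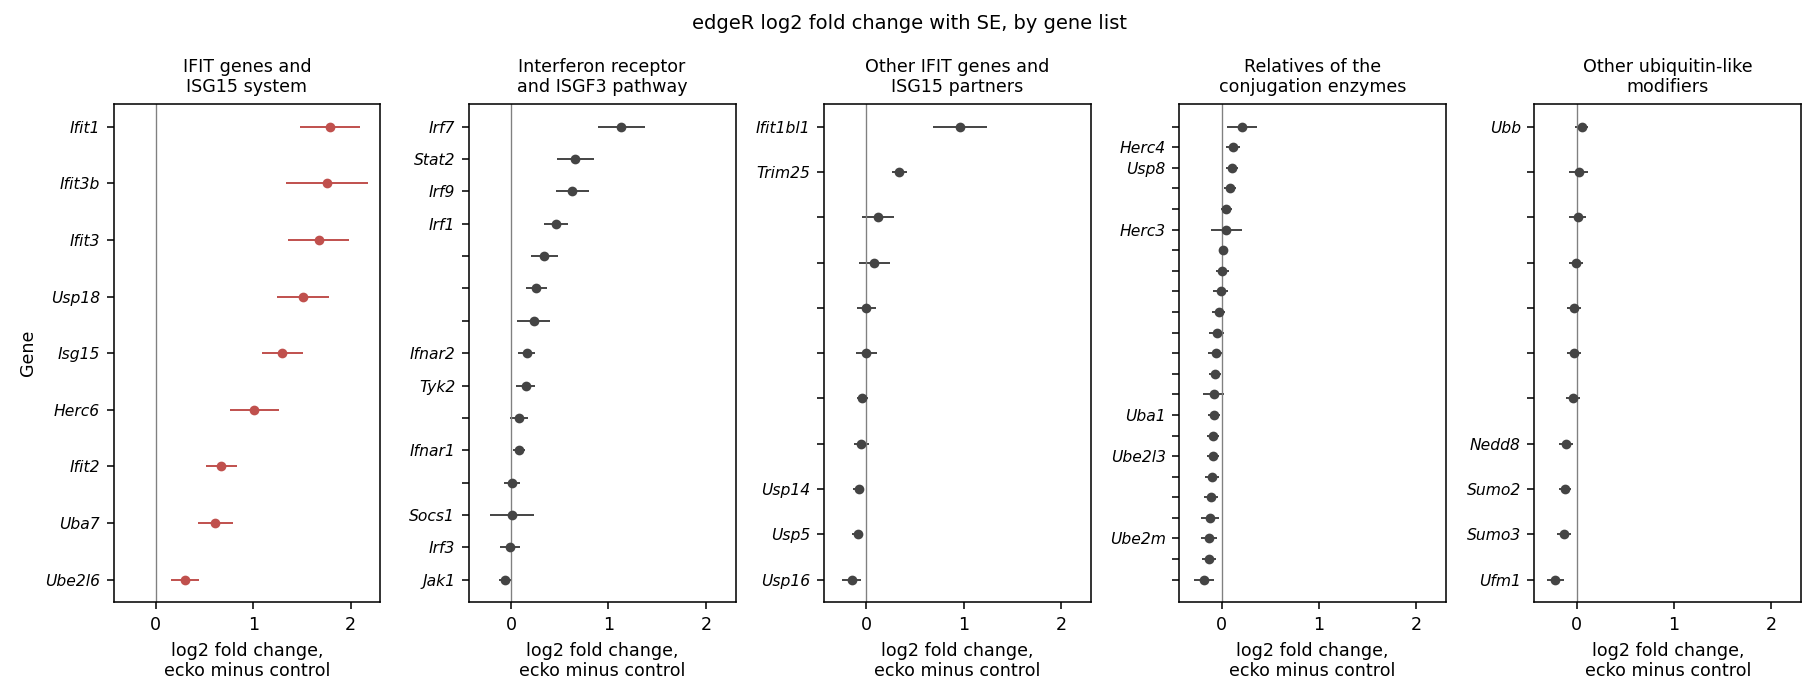
edgeR log2 fold change, ecko minus control, with bars of 1 SE, for the 9 genes (red) and genes of 4 related lists (dark grey), 1 panel per list, with labels on the genes named in the text except Ube2f. The 9 genes run from 0.30 to 1.79, the pathway genes from -0.06 to 1.13, and the relatives of the enzymes from -0.18 to 0.21.

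Marker lists of leukocytes differed in direction, and 0 of their genes passed the edgeR test. The sum of 10 macrophage genes without interferon-induced ones was 693.7 to 766.1 CPM in controls and 757.4 to 827.6 CPM in ecko. Of their means 10 of 10 were higher, beside 49.5% of all genes tested, and their median log2 fold change was 0.151. The sum of 4 pan-leukocyte genes was 126.8 to 155.4 and 156.4 to 170.2 CPM, with a median of 0.154. Neutrophil genes were few in counts, and the sum of the 6 tested was 21.8, 9.24 and 10.8 CPM in controls 1 to 3 and 51.3, 24.5 and 12.8 CPM in ecko 1 to 3. Their highest library was ecko 1, as for the members, and their median log2 fold change was 1.196. Of the 6, 4 had a higher mean (Cxcr2 1.41 ± 0.45, S100a9 1.35 ± 0.87, S100a8 1.24 ± 0.80 and Csf3r 1.15 ± 0.33; SE) and 2 a lower one (Camp -1.93 ± 0.42 and Ngp -0.93 ± 0.47). Ly6g had 0 or 1 count in each library.

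Plasmacytoid dendritic cells, known as interferon producers, left few reads. Siglech, their defining receptor, had 11, 15 and 11 counts across the controls, against 13, 12 and 21 in ecko, with overlapping groups. The sum of 5 tested markers was 28.7 to 50.2 and 42.5 to 57.9 CPM. Most of it came from Bst2, itself interferon induced (0.76 ± 0.14, SE), and from Cox6a2, which muscle also expresses (0.03 ± 0.27). T and NK cell markers summed to 3.60 to 4.38 and 3.20 to 4.84 CPM, with 2 of 3 lower and a median of -0.194. Median log2 fold changes of the keratinocyte, fibroblast, cartilage, lymphatic, Langerhans and dendritic, mast cell and muscle markers lay between -0.137 and 0.077. The 8 pan-endothelial markers, of the targeted cell type, had 7 of 8 means lower, beside 49.5% of all genes tested with a higher mean. Their sum was 395.6 to 477.3 CPM in controls and 366.4 to 388.6 CPM in ecko, and their median log2 fold change was -0.155. Groups did not overlap in 4 of the 8 on the lower side and in 0 on the higher side, beside 8.11% and 7.55% of all genes. The part of any of these cell types in the members' levels was not tested.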

How the data were processed

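Poly(A) RNA of ear skin was sequenced in 3 control and 3 ecko libraries. The deposited values are expected counts per gene, estimated by the authors and not scaled, and 10.1% to 10.4% of values per library are not whole. Per the submitters' processing notes, RSEM 1.3.1, Bowtie2 2.4.5, HISAT2 2.2.1 and the build GRCm38.p6 were used, in roles not stated; annotation and strand setting are not given in the sources used here. Of 18404 genes, 18353 matched the RefSeq table by identifier.

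The expected counts were rounded and tested across all genes with edgeR 4.0.16 in R 4.3.3 (filterByExpr with a minimum count of 10, TMM, robust glmQLFit, two-sided, Benjamini-Hochberg over 14920 genes, threshold 0.05). Each SE is the size of the log2 fold change over the root of its F statistic. log2 CPM used a prior count of 2. Exon lengths and coding sequences came from GENCODE M21 (GRCm38). Protein identity was planned, and coding sequence identity is given in its place.

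The members, the lists and the rule for named genes were chosen with earlier results of these data known. The rule names all 9 members, Kdr, up to 4 genes of smallest p per list, all interferon genes present, and the 8 nearest patterns. Further genes of the lists (Ifnar1, Ifnar2, Jak1, Tyk2, Irf3, Socs1, Usp14, Ube2l3, Uba1, Herc3, Ubb and single markers) were picked for their role or as range ends after their values were seen. Lists are described by counts and medians, with no set test; 2 of their genes enter these and are not reported here singly. The gene tests were tested on simulated data. Alternatives were DESeq2 1.42.0, its size factors, limma-voom (limma 3.58.1), other filters, no robust estimation, a replicate block and leaving out each library.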

Additional observations from a re-analysis of the deposited data

How the results depend on the processing

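All 9 members kept a higher mean in ecko under every alternative run. Their median log2 fold change lay between 1.153 (without ecko 1) and 1.474 (without control 1) when each library was left out, and ran from 1.299 to 1.308 under the other alternatives. With all 6 libraries, 8 members had groups without overlap under each scaling and filter run, beside 7.36% to 7.80% of all genes. With 1 library left out there were 8 to 9, beside 10% to 15% of all genes. Ube2l6 ran from 0.149 (without control 3) to 0.394 (without control 1), Ifit3b from 1.341 to 2.147 and Ifit2 from 0.504 to 0.815. Models differed in how many genes they called. edgeR called 0 higher and 1 lower, DESeq2 87 higher and 26 lower, and the edgeR fit with a replicate block 88 higher and 10 lower. With 1 library left out edgeR called 0 to 2 higher (2 without ecko 3) and 1 lower. DESeq2 and the block fit each called the same 7 members (Ifit1, Ifit2, Ifit3, Ifit3b, Isg15, Herc6 and Usp18), with adjusted p of 2.13e-05 to 0.0134 in the block fit for those 7. Equal replicate numbers gave correlations of deviations of 0.162, -0.237 and -0.073 across genes, so the numbers were not taken to pair the libraries. Why the models differ was not tested. At 16987130 to 17979182 expected counts per library, the smallest members had 27.4 counts (Ifit3b) and 28 counts (Usp18) in control 3.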
